A study of Mus musculus with 36 samples.

Results

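Untreated lung of the A/J mouse strain was followed across the 12 weeks of a carcinogen study. The series holds 36 arrays of mouse lung from 2 inbred strains, A/J and C3H, with and without NNK, a carcinogen of tobacco smoke given by injection at 100 mg/kg each week for 4 weeks. The 10 arrays described here are all the A/J arrays labelled as having no treatment, 2 at each of weeks 0, 3, 6, 9 and 12. The 10 untreated C3H arrays of the same weeks and the 8 arrays of NNK-treated A/J lung (weeks 3, 6, 9 and 12, 2 each) are set beside them where stated. The week is the labelled time after exposure, given to the untreated mice as well. The labels name the strain, the tissue, the week and the treatment, and they state housing under a light and dark cycle. No age, sex, vehicle or hour of collection is given. Nor is it stated that both arrays of a week came from separate mice, so a p-value here reflects the spread among these arrays alone, and that spread may be technical.

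The circadian clock runs in lung cells as in most tissues. The transcription factors CLOCK and BMAL1 (gene Arntl) bind E-box sequences and switch on the Per, Cry, Nr1d and Dbp genes, whose products feed back on the loop, so that Arntl and its targets peak at opposite times of the day. Lung also finishes its elastic fibre network in early life, when fibroblasts make tropoelastin (Eln), fibrillar collagens and the lysyl oxidases that crosslink them. The alveolar wall carries gas-exchanging type 1 cells and surfactant-making type 2 cells, and the airways carry club, ciliated and mucous cells.

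All 10 arrays carried the markers of lung. On the log2(intensity + 16) scale used throughout, Sftpc, the surfactant protein of type 2 cells, lay between 13.82 and 14.05, and Scgb1a1, the secretoglobin of club cells, between 13.53 and 13.85. The type 1 marker Ager lay between 13.21 and 13.47 and the endothelial Cdh5 between 13.09 and 13.28. Foxj1, of ciliated cells, lay between 9.01 and 9.52. The alveolar macrophage gene Chil3 reached 7.99 to 9.34, against 9.26 to 10.10 in untreated C3H. Levels of different genes on this array are not on a scale per length and are not compared with each other. The correlation between the 2 arrays of a week ran from 0.979 at week 3 to 0.990 at week 6, and the median SD of those 2 arrays over genes was 0.118 at week 3 against 0.0622 to 0.0939 at the other weeks. Deposited median intensities ran from 285 to 347. The number of arrays limits the precision.

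Several of the 10 arrays also carried RNA of other tissues. Lor, which encodes the cornified envelope protein loricrin of skin, stood at 6.91 and 13.65 in the week 0 arrays, 7.01 and 7.22 at week 3, 12.74 and 13.59 at week 6, 7.25 and 7.40 at week 9, and 7.03 and 7.16 at week 12. The second week 0 array and both week 6 arrays were thus far above the other 7, and no untreated C3H array exceeded 7.26. Of 31 skin genes measured, 14 were more than 1 log2 unit above the median of the 10 arrays in the second week 0 array, 9 in the first and 11 in the second week 6 array, and 0 in the other 7. The list held 49 genes, and many of the rest fell below the filter on dim genes. That filter used the mean over all arrays, so a gene could pass through its high arrays, which favours high counts here. Such genes were not counted over all genes tested. Krt1, a keratin of the upper epidermis, showed the signal only at week 6, with 14.37 and 14.77 there, 9.27 in the second week 0 array and 8.62 to 9.53 in the other 7 arrays. The second week 0 array thus had high Lor without high Krt1 or Krt10 (Krt10 at 8.10 there, 11.54 and 12.10 at week 6). It stood highest for several genes of stratified mucosa such as that of the oesophagus, though not for all of those listed. Krt4, a keratin of such mucosa, was 13.90 there and 6.31 to 6.97 in the other 9 arrays. Krt13, the partner of Krt4, was 10.66 against 6.83 to 7.53, and Sprr3, a small proline-rich protein of the same epithelium, 10.84 against 6.63 to 7.01. These 3 genes were below the filter on dim genes and were not tested. Crct1, a cornified envelope gene, was 13.45 there, 10.77 and 11.27 at week 6, and 8.12 to 8.60 in the other 7. The mean of the 4 tested genes of the mucosa list was 9.79 in the second week 0 array, 9.13 in both week 6 arrays and 8.28 to 8.39 in the other 7. Crct1 is 1 of these 4. Krt6b, another of them, was not high in the second week 0 array, at 7.88. Nor were the untested Krt6a at 7.33 and Psca at 6.74, and all of these lay within the range of the other 9 arrays.

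The second week 0 array also held skeletal muscle RNA. Acta1, skeletal muscle actin, stood at 14.31 there and between 9.26 and 10.10 in the other 9 arrays, and Neb, the giant filament protein nebulin, at 10.93 against 7.37 to 7.53. Ckm, a creatine kinase of muscle, was 11.46 against 8.74 to 10.45. Myh4, a myosin of skeletal muscle, was not high, at 7.62 against 7.30 to 7.79. In this array 9 of 19 skeletal muscle genes lay more than 1 log2 unit above the median of the 10. These are the 19 of 27 listed genes that passed the same filter, so the same limit holds. Heart and fat genes varied between arrays as well. Nppa, the atrial natriuretic peptide, was 9.12 and 9.37 at week 0, 9.11 and 9.36 at week 3, 12.40 and 9.74 at week 6, 7.98 and 8.77 at week 9, and 11.93 and 11.06 at week 12. Ucp1, the uncoupling protein of brown fat, was 9.64 in the first week 6 array and 9.99 in the first week 12 array, and 6.33 to 8.39 in the other 8.

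The second week 3 array stood apart by acute phase and mesothelial genes. Saa3, a serum amyloid A made in inflamed tissue, was 12.32 there and 7.30 to 8.04 in the other 9 arrays, and Prg4, the lubricin of serosal and joint surfaces, was 11.30 against 7.01 to 8.12. Of 17 genes of that list, 5 were more than 1 log2 unit above the median in this array, with the same limit of the filter. Alb, the albumin of liver, was 10.19 and 11.71 at week 9 and 7.22 to 7.70 at the other weeks. In untreated C3H it was also high at week 9, at 10.33 and 10.20, with 8.76 and 9.27 at week 12, 7.62 and 9.41 at week 6 and 7.44 to 7.68 earlier. Apoa1, also of liver, was not high in A/J at week 9, at 9.09 and 9.18 against 8.75 to 9.35 at the other weeks. In each week 9 A/J array 1 of 8 liver genes was more than 1 log2 unit above the median. Counts and calls that changed without single arrays are given beside the results.

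**Figure D1:**
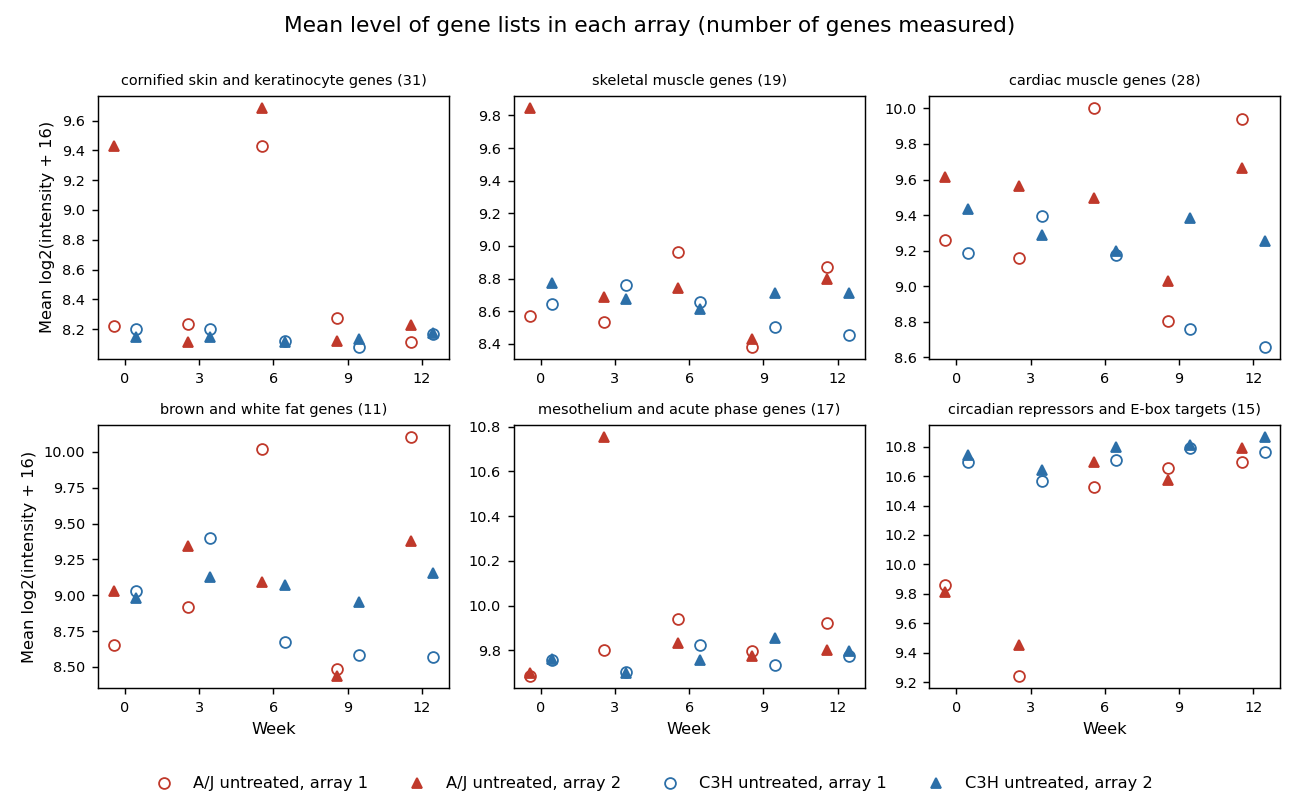
Mean log2(intensity + 16) over the measured members of 6 gene lists (y axis) by week (x axis), 1 symbol per array, in untreated A/J (red) and untreated C3H (blue). The second week 0 and both week 6 A/J arrays stand out for the list of cornified skin genes, the second week 0 array for skeletal muscle, the second week 3 array for acute phase genes, and all 4 A/J arrays of weeks 0 and 3 lie lowest for circadian genes.

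More genes passed a test for a step than a test for a slope, except without week 12, where 86 passed for the step and 111 for the slope. The step compared the 6 arrays of weeks 6, 9 and 12 with the 4 arrays of weeks 0 and 3. Of 14953 genes tested with limma, 502 (3.36%) passed a Benjamini-Hochberg adjusted p of 0.05. Of these, 359 (2.4% of the genes tested) rose and 143 (0.956%) fell. Among the 502, the median size of the change was 0.36 log2 units, and 60 genes changed by more than 1.5-fold. The groups of 4 and 6 arrays did not overlap for 441 of them. The step test itself selects for such separation, and genes without overlap were not counted over all genes tested. On the deposited scale without quantile normalization 329 genes passed, 125 higher and 204 lower, so that the share of rises fell from 71.5% to 38.0% as the median of all genes moved from 0.04 to -0.01.

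The step count depended on single arrays. It was 149 without the first and 112 without the second week 0 array, 282 and 1784 without the first and the second week 3 array, 253 and 148 without the first and the second week 6 array, and 295 and 180 without the first and the second week 12 array. It fell to 20 when both week 6 arrays and the second week 0 array, those with high Lor, were left out together, a fit with 7 arrays. Those 20 genes included 8 circadian genes, Eln, Col3a1, Hc, Tspan4 and Rasl11a, described next.

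Most of the largest rises were in the circadian loop. Of 15 genes repressing the loop or driven through E-boxes, all 15 were measured and 13 rose from weeks 0 and 3 to weeks 6, 9 and 12, with a median step of 1.20 over the list against 0.04 over all genes tested. Over all genes tested 2.4% rose. Of the 13 members with a RefSeq promoter window (mouse build GRCm38.p6, 250 bases before to 50 after a gene's start), 5 held the E-box CACGTG, which reads the same on both strands: Per1, Cry1, Tef, Ciart with 3 copies, and Bhlhe41. Some genes have several windows, and 6 of the 17 windows of these members held it, against 7.15% of the 32851 windows of all genes. Per3 held 2 copies of the D-box TTATGTAA, the site of DBP, TEF and HLF, found in 0.938% of windows on either strand. The ROR element TAGGTCA, bound by the ROR and REV-ERB receptors, was in 2 of the 6 activators with a window, Arntl and Nfil3, and in 2.61% of all windows. No 2 of these motifs overlapped. Stretches of 80 bases around the first motif, written 5′ to 3′ on the strand of the gene with the motif in capitals, are shown because these genes carried the step, and Arntl because it moved the other way.
Per1, E-box, chr11:69098746-69098825, plus strand: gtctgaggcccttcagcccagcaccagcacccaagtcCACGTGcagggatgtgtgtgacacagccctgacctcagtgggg
Bhlhe41, E-box, chr6:145865531-145865610, minus strand: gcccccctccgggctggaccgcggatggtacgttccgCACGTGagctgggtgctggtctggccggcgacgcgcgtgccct
Ciart, E-box, chr3:95882302-95882381, minus strand: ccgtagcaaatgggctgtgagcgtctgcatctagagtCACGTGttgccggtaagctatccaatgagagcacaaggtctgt
Per3, D-box, chr4:151044827-151044906, minus strand: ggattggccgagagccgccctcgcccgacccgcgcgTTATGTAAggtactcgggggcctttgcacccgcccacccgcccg
Arntl, ROR element, chr7:113207481-113207560, plus strand: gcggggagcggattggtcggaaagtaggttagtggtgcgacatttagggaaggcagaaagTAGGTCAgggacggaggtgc
A match is a string of letters in the window and says nothing of binding in these lungs.

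Per1, a repressor of the loop that also responds to glucocorticoids, showed the largest rise of all genes called. Its level was 9.95 and 9.61 in the week 0 arrays, 8.94 and 9.44 at week 3, 11.06 and 11.28 at week 6, 11.68 and 11.58 at week 9, and 11.12 and 11.29 at week 12. The 4 early arrays lay below all 6 later ones. The mean went from 9.48 ± 0.42 (SD, n = 4) to 11.34 ± 0.25 (SD, n = 6), a step of 1.85 ± 0.18 (SE; 3.61-fold, limma adjusted p = 0.000517). Bhlhe41, which encodes the E-box repressor DEC2, had the smallest adjusted p. It stood at 8.27 and 8.36 at week 0, 7.95 and 8.24 at week 3, 9.65 and 9.86 at week 6, 9.57 and 9.64 at week 9, and 10.04 and 9.77 at week 12. Here too the early and later arrays did not overlap, and the step was 1.55 ± 0.10 (SE; 2.93-fold, limma adjusted p = 3.76e-05).

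Dbp, the D-box activator and a direct CLOCK and BMAL1 target, was 11.07 and 11.00 at week 0, 9.37 and 9.49 at week 3, 11.61 and 11.80 at week 6, 11.60 and 11.52 at week 9, and 11.78 and 12.04 at week 12. The week 3 arrays were the lowest of the 10, and week 0 lay just under the later weeks. Its step was 1.49 ± 0.31 (SE, limma adjusted p = 0.0287), and its difference over the 5 weeks had a limma adjusted p of 4.27e-05. The step missed the threshold without the first week 3 array, the second week 6 array or either week 12 array. Hlf, a D-box activator of the same family, followed the same order, with 9.41 and 9.19 at week 0, 8.46 in both week 3 arrays, and 10.05 to 10.45 in the 6 later ones. Its step was 1.38 ± 0.17 (SE, limma adjusted p = 0.00232). For 11 of the 15 genes both week 3 arrays were below both week 0 arrays, as for 10.6% of all genes tested.

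Ciart, a repressor of CLOCK and BMAL1, showed no such dip. It was 8.92 and 9.02 at week 0, 9.05 and 9.12 at week 3, and 10.10 to 10.72 later, a step of 1.29 ± 0.11 (SE, limma adjusted p = 0.000299). The other repressors also rose: Per2 by 1.46, Per3 by 1.20, Cry2 by 0.55, Cry1 by 0.52 and Nr1d2, which encodes the receptor REV-ERB beta, by 0.69. Among targets, Usp2, a deubiquitinase, rose by 1.27, Tef, the third D-box activator, by 0.98 and Tsc22d3, a leucine zipper protein of glucocorticoid response, by 0.97. Nr1d1 (REV-ERB alpha) at 0.35 and Bhlhe40 (DEC1) at 0.45 did not pass, with limma adjusted p of 0.112 and 0.0802, and the early and later arrays overlapped for both.

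Members of the activating arm went the other way or changed little. Of 5 measured, Arntl and Clock fell, Rora, which encodes an activator of Arntl, rose by 0.27, and Nfil3, the D-box repressor, and E2f8 did not pass. Over all genes tested 0.956% fell and 2.4% rose. Rora lost its call without the second week 0 or the second week 6 array. Arntl was 8.75 and 8.64 at week 0, 9.19 and 9.96 at week 3, 7.82 and 7.65 at week 6, 7.94 and 8.41 at week 9, and 8.01 and 7.70 at week 12. It was highest in the week 3 arrays, where Dbp and Hlf were lowest, and the early and later arrays did not overlap. It fell by 1.21 on the log2 scale (SE 0.23, limma adjusted p = 0.0181). Clock fell by 0.39 (limma adjusted p = 0.00865), with 11.07 to 11.22 early and 10.60 to 10.83 later.

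The count of 13 of 15 held on the deposited scale, with week as a random block, without the second week 0 array and without the second week 3 array. It was 11 without week 12 and 8 without the week 6 arrays and the second week 0 array, where the list median was 1.31. Arntl and Clock lost their calls in that last fit and without week 12, and 0 of the 5 activators were called in either.

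The step of the clock genes differed between the strains. In untreated C3H the mean of the 15 genes lay between 10.57 and 10.74 at weeks 0 and 3 and between 10.71 and 10.86 later. In A/J it was 9.81 and 9.86 at week 0, 9.24 and 9.45 at week 3, and 10.53 to 10.79 later. The A/J arrays of weeks 0 and 3 were therefore below every untreated C3H array, and the later A/J arrays overlapped the C3H range. A model over the 20 untreated arrays tested the difference of the 2 steps, and 77 of 14953 genes (0.515%) passed, 51 of them with the larger signed step in A/J. On the deposited scale 54 passed, 23 of them with the larger signed step in A/J. The 77 included 12 of the 15 clock genes. Bhlhe41 differed by 1.48 ± 0.14 (SE, limma adjusted p = 1.67e-05), Ciart by 1.21 and Per1 by 1.68 (both limma adjusted p = 0.00147), and Usp2 by 0.96 (limma adjusted p = 0.00152). For Arntl the difference of -0.99 did not pass (limma adjusted p = 0.0966). In C3H alone Per2 and Usp2 rose, by 0.36 and 0.31 (both limma adjusted p = 0.0334). Without the second A/J week 3 array, 612 genes differed between the strains in their step.

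The 8 arrays of NNK-treated A/J lung, which have no week 0, were also low at week 3. The mean of the 15 genes was 9.44 and 9.62 in the 2 treated week 3 arrays and 10.44 to 10.84 in the 6 later ones, and for 14 of the 15 genes both week 3 arrays lay below all 6, as for 8.41% of all genes tested. Dbp averaged 10.05 at week 3 and 11.72 later, and Hlf 8.50 and 10.27. Arntl averaged 9.64 at week 3 and 7.91 later, with all 6 later arrays between 7.86 and 7.99. These values are a description and were not tested.

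**Figure D2:**
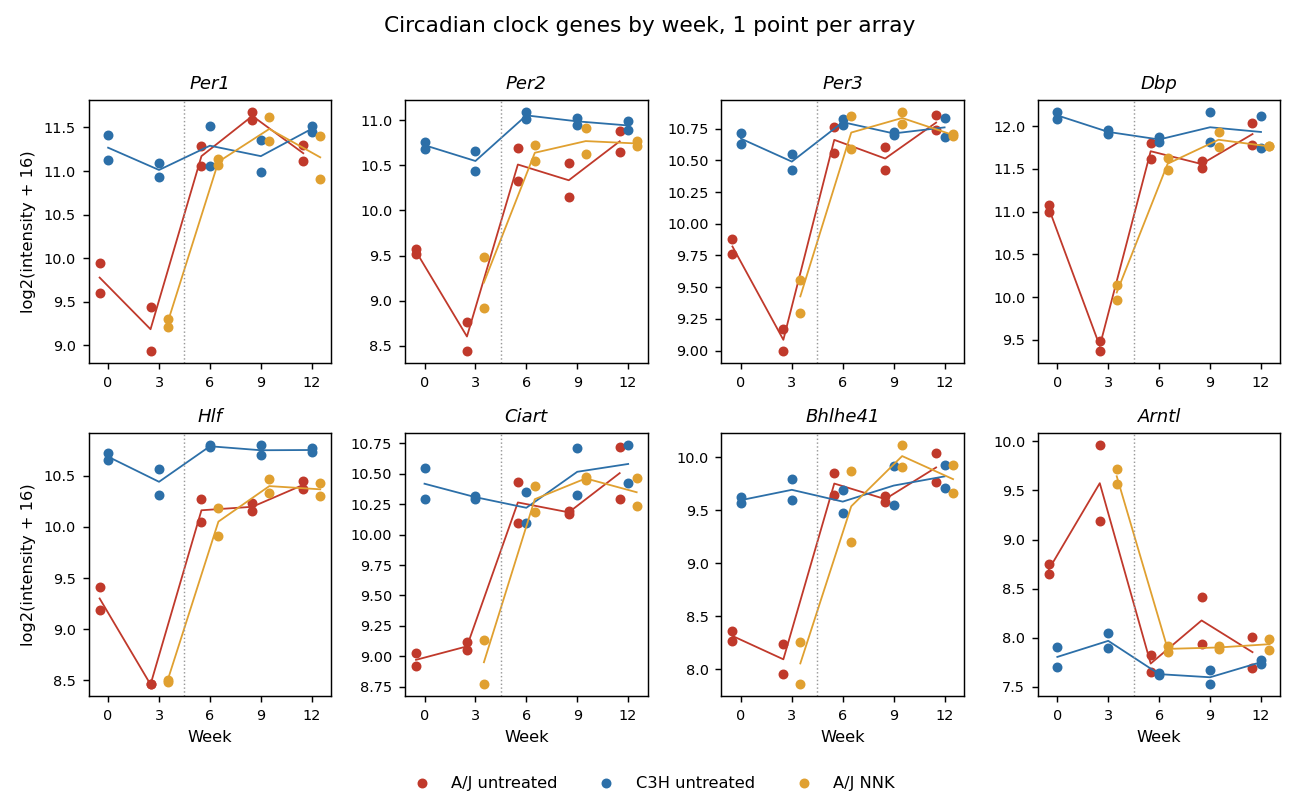
Level of 8 circadian genes (y axis, log2(intensity + 16)) by week (x axis), 1 point per array and a line through the mean of each week, in untreated A/J (red), untreated C3H (blue) and NNK-treated A/J (yellow). The dotted line divides weeks 0 and 3 from the later weeks; the A/J arrays to its left are low for 7 genes and high for Arntl, and Per1 rises by 1.85 across it.

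Other large rises included glucocorticoid responsive genes. Of 23 measured, 6 rose and 1, Lox, fell, against 2.4% and 0.956% of all genes tested. The rises numbered 11 without the second week 3 array, where 1453 of all 14953 genes tested rose. They numbered 2 without the 3 arrays with high Lor, where 15 of all genes tested rose. These 2 were Per1 and Tsc22d3, and no member outside the circadian list kept its call there. Zbtb16, which encodes the transcription factor PLZF, stood at 10.18 and 9.30 at week 0, 8.96 and 9.16 at week 3, and 10.75 to 11.06 in the 6 later arrays. No early array reached the later range, and the step was 1.57 ± 0.18 (SE, limma adjusted p = 0.00159). In C3H its step was 1.08 (limma adjusted p = 0.0943), and the difference between strains of 0.49 did not pass (limma adjusted p = 0.557). Klf15, a metabolic transcription factor, rose by 0.66 (limma adjusted p = 0.00389), and Per1 and Tsc22d3 of the circadian list are members as well. Fkbp5, a classical glucocorticoid target, was 7.71 to 8.03 early and 8.03 to 8.43 later, and its step of 0.33 did not pass (limma adjusted p = 0.0655).

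Outside these lists, Tspan4, a tetraspanin of the cell membrane, rose by 1.07 ± 0.12 (SE, limma adjusted p = 0.000988), from 9.95 to 10.65 early to 11.31 to 11.58 later, with no overlap. Its step also exceeded that in C3H, by 0.82 (limma adjusted p = 0.00834). The small nucleolar RNAs Snora73a and Snora73b rose by 1.39 and 1.28 (limma adjusted p = 0.0258 and 0.0298). They are near-identical copies whose probes cannot be told apart with certainty. Snora73a ran 10.88 and 10.21 at week 0, 11.42 and 11.52 at week 3, 12.52 and 12.61 at week 6, 12.48 and 13.01 at week 9, and 12.16 and 11.58 at week 12. It was lowest at week 0 and its second week 12 array was close to week 3. Its rise missed the threshold without either week 0 array or the second week 6 array, and that of Snora73b also without the first week 6 array.

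Tropoelastin, the lysyl oxidases Lox and Loxl1 and a few other matrix genes were lower from week 6. Of 38 measured fibroblast and matrix genes 8 fell and 0 rose, with a list median of -0.16 against 0.04 over all genes. Over all genes tested 0.956% fell and 2.4% rose. Eln, tropoelastin, was 10.60 and 10.75 at week 0, 10.71 and 10.94 at week 3, 9.91 and 9.85 at week 6, 9.72 and 10.07 at week 9, and 9.83 and 9.82 at week 12. The 4 early arrays were all above the 6 later ones, and the means were 10.75 ± 0.14 (SD, n = 4) and 9.87 ± 0.12 (SD, n = 6). It fell by 0.89 on the log2 scale (SE 0.08; 1.85-fold, limma adjusted p = 0.000482) and kept its call in every alternative run. In whole lung, fewer cells of a type and less RNA per cell cannot be told apart.

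Col3a1, the fibrillar collagen of the lung wall, was 10.90 and 10.89 at week 0, 10.76 and 11.05 at week 3, 10.60 and 10.32 at week 6, and 10.11 to 10.22 in the last 4 arrays. It fell by 0.63 (SE 0.09, limma adjusted p = 0.00535). Lox, the lysyl oxidase that crosslinks elastin and collagen, fell by 0.60 (limma adjusted p = 0.00851), and Loxl1, the elastin-specific relative, by 0.53 (limma adjusted p = 0.0172), a call lost without the second week 0 array. Of 13 collagen genes measured, 2 fell, Col3a1 and Col5a2, 0 rose, and 3 had a positive step. Col1a1, the main fibrillar collagen, at -0.38 did not pass (limma adjusted p = 0.0775), and Fbln5, an elastic fibre protein, had a step of 0.05 (limma adjusted p = 0.672). None of Eln, Col3a1, Lox and Loxl1 had early arrays that overlapped the later ones. Spon2, the matrix protein spondin 2, was not in the list and fell by 1.11 (SE 0.16, limma adjusted p = 0.00612), with its highest value of 9.95 in the second week 3 array and 8.06 to 8.42 in the 6 later arrays.

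In C3H the same genes also had negative steps, -0.20 for Eln, -0.40 for Col3a1, -0.24 for Lox and -0.37 for Loxl1, of which Loxl1 passed (limma adjusted p = 0.044). The list median there was -0.15, and 3 of the 38 fell, against 66 of 14953 genes tested. Eln in C3H was 10.61 and 10.46 at week 0 and 9.90 and 10.01 at week 3. It was 10.34 in both week 6 arrays, 9.96 and 10.09 at week 9, and 9.76 in both week 12 arrays. Its week 3 arrays were thus already low, which makes the C3H step small. None of the 38 passed the test of the strain difference, where limma's adjusted p was 0.113 for Eln. The count of 8 fell to 4 with week as a random block, to 3 without the second week 0 array or without week 12, to 1 without week 0 and to 2 without the week 6 arrays and the second week 0 array, the last 2 being Eln and Col3a1.

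Mucous cell, growth and xenobiotic genes supplied other large falls. Clca1, a secreted protein of mucous cells, showed the largest change of all genes called. It was 9.96 and 10.95 at week 0, 8.45 and 10.99 at week 3, 7.64 and 7.46 at week 6, 7.43 and 7.42 at week 9, and 6.99 and 7.30 at week 12. The early arrays spread over 2.55 log2 units and still lay above all later ones. It fell by 2.72 (SE 0.40; 6.57-fold, limma adjusted p = 0.00531), and its step differed from that in C3H by -3.19 (limma adjusted p = 0.0148). The call was lost without week 0 and without the 3 arrays with high Lor. Retnla, the resistin-like protein of type 2 immune responses, fell by 0.73 (limma adjusted p = 0.0258), and it was the only other of 13 mucous genes called. The count of 2 became 1 without the second week 0 array and 0 without the 3 arrays with high Lor, and Retnla also lost its call without the second week 6 array. The mucins Muc5b at -0.56 and Muc5ac at -0.16 did not pass (limma adjusted p = 0.0753 and 0.223). Spdef at 0.28 and Tff1 at 0.21 went the other way and did not pass either (limma adjusted p = 0.0616 and 0.0693). Of the 13 genes, 4 had a positive and 9 a negative step. The 2 falls of 13 stand against 0.956% of all genes tested.

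Igf1, the growth factor, was 10.09 to 10.50 early and 9.31 to 9.69 later, with no overlap. It fell by 0.72 (SE 0.09, limma adjusted p = 0.00232). The imprinted Peg3 and the IGF binding protein Igfbp3 fell by 0.50 and 0.32, which made 3 of 16 measured genes of postnatal growth, with 0 rises. Over all genes tested 0.956% fell and 2.4% rose. Igfbp3 lost its call without either week 0 array, the second week 6 array or either week 12 array. Igf2 at 0.13 did not pass (limma adjusted p = 0.358). Cyp1a1, the aryl hydrocarbon receptor target, was 8.93 and 9.82 at week 0, 9.13 and 9.23 at week 3, and 7.67 to 8.75 later, and fell by 1.16 (SE 0.22, limma adjusted p = 0.0193). Of the 25 oxidative stress and xenobiotic genes measured, Gclc, of glutathione synthesis, also fell, by 0.29, and Ephx1, an epoxide hydrolase, rose by 0.32. All 3 calls were lost without the second week 0 array.

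Of 22 type 2 cell genes 4 fell and 0 rose, against 0.956% and 2.4% of all genes tested, with a list median of -0.05. The count was 2 without the second week 0 array and 1 without the 3 arrays with high Lor. Hc, complement C5, led them with 11.73 in both week 0 arrays, 11.87 and 11.76 at week 3, and 11.08 to 11.28 in the 6 later arrays. The groups did not overlap, and it fell by 0.59 (SE 0.06, limma adjusted p = 0.000735). In C3H its step was 0.10, and the difference between strains was -0.69 ± 0.07 (SE, limma adjusted p = 3.57e-05). The enzyme gene Acoxl fell by 0.34, the alarmin Il33 by 0.39 and the chemokine Cxcl15 by 0.24, while Lamp3, of lamellar bodies, at -0.22 did not pass (limma adjusted p = 0.128). The surfactant protein genes hardly moved. Sftpc had a step of -3.36e-05, and Sftpb, Sftpa1 and Sftpd each had -0.02 (limma adjusted p of 0.816 or more). Acoxl lost its call without the first week 0 array, and Il33 and Cxcl15 each kept theirs in 3 of 10 fits with a single array removed. Among 18 type 1 genes Spock2 and Igfbp2 rose, by 0.23 and 0.39, and Aqp5, the water channel, at 0.28 did not pass (limma adjusted p = 0.0778). With a single array removed, Igfbp2 kept its call in 1 of 10 fits, that without the second week 3 array, and Spock2 in 2, those without the second week 3 or the second week 9 array. The other large falls were Rasl11a, a small GTPase gene, by 1.03, Slc26a4, the anion exchanger pendrin, by 0.84, Ccnjl, a cyclin-like gene, by 0.82, Fam124b by 0.75 and Gm6377 by 0.71. The early and later arrays overlapped for Ccnjl and for none of the other 4. Ccnjl kept its call in 5 of 10 fits with a single array removed, and Gm6377 lost it without the second week 0 array.

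**Figure D3:**
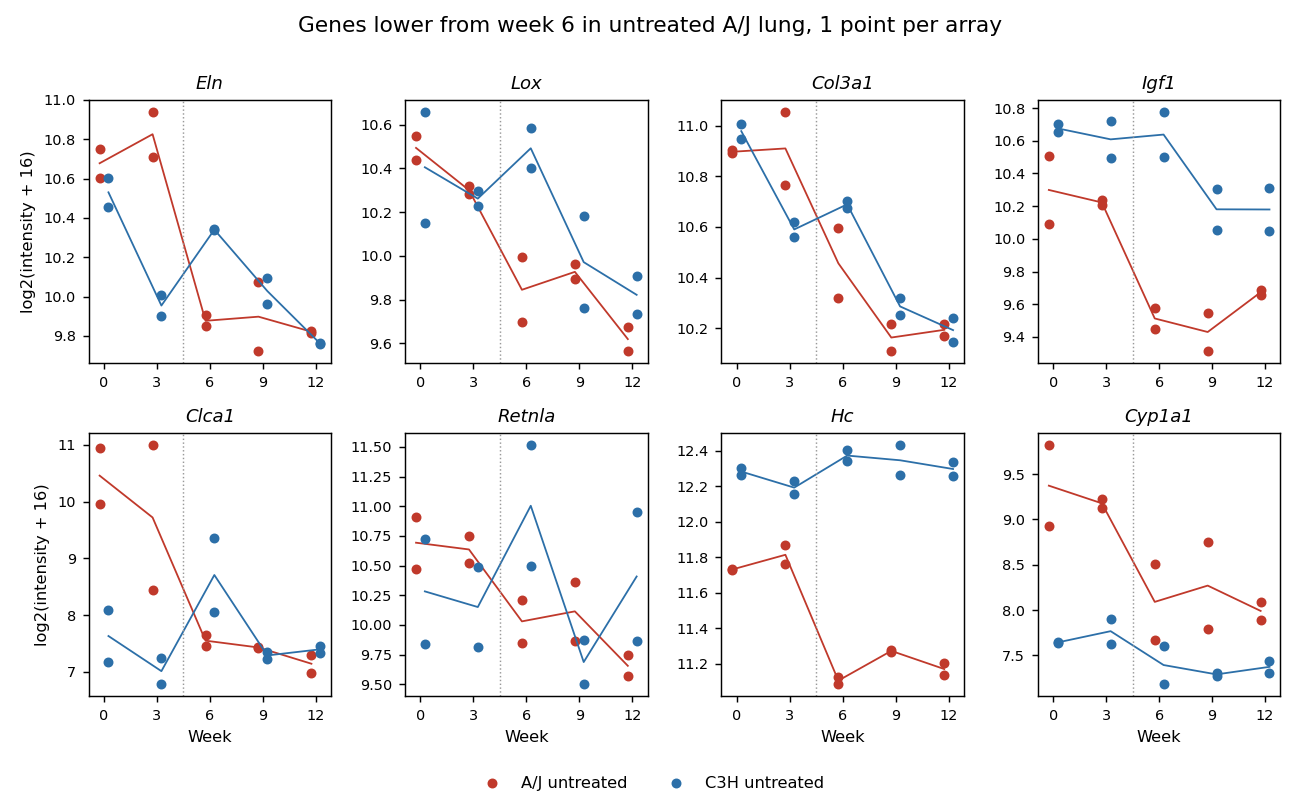
Level of 8 genes that were lower from week 6 (y axis, log2(intensity + 16)) by week (x axis), 1 point per array and a line through the mean of each week, in untreated A/J (red) and untreated C3H (blue). For all 8, the 4 A/J arrays of weeks 0 and 3, left of the dotted line, lie above the 6 later A/J arrays, as for Eln at 10.60 to 10.94 against 9.72 to 10.07.

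A straight line over the 12 weeks gave few calls. Of 14953 genes, 6 (0.0401%) passed, 5 rising and 1 falling, though 2976 had an unadjusted p under 0.05. On the deposited scale 1 gene passed, with 0 rises. Sytl5, a synaptotagmin-like gene of vesicle transport, was 7.52 and 7.53 at week 0, 7.83 and 7.90 at week 3, 8.08 and 8.24 at week 6, 8.20 and 8.33 at week 9, and 8.39 and 8.69 at week 12. Its week means were higher at each later week, and the line rose by 0.97 ± 0.10 (SE) in 12 weeks (limma adjusted p = 0.00713). Tlr12, a Toll-like receptor for parasite profilin, went from 7.65 and 7.58 at week 0 over 8.08 and 7.98 at week 3 to 8.85 and 8.83 at week 12, a rise of 1.20 ± 0.14 (SE, limma adjusted p = 0.0157). Mthfd1l, of mitochondrial folate metabolism, rose by 1.03, and Ciart of the clock list by 1.67 (both limma adjusted p = 0.0365). Npy1r, a neuropeptide Y receptor, rose by 0.87 (limma adjusted p = 0.0497).

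The only called fall along the line was Lox, with 10.55 and 10.44 at week 0, 10.28 and 10.32 at week 3, 9.99 and 9.70 at week 6, 9.96 and 9.89 at week 9, and 9.67 and 9.56 at week 12. It fell by 0.85 in 12 weeks (SE 0.12, limma adjusted p = 0.0365). All of the 6 but Npy1r also passed the step test. Tlr12 was the 1 gene of 14953 (0.00669%) whose line differed between A/J and C3H, by 1.26 (limma adjusted p = 0.0344); in C3H it was already at 8.96 ± 0.20 (SD, n = 4) at weeks 0 and 3.

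These line counts rested on few arrays. Sytl5 lost its call without either week 0 array, and Tlr12 also without the second week 9 or the second week 12 array. Ciart kept its call in 3 of 10 fits with a single array removed, and Mthfd1l, Npy1r and Lox in 2, those without the second week 3 or the second week 6 array. Without the first or the second week 0 array 0 genes passed, against 1825 and 1753 with an unadjusted limma p under 0.05. Without the first and the second week 3 array the counts were 3 and 250, without those of week 6 they were 2 and 57, without those of week 9 they were 2 and 1, and without the second week 12 array 2. The Tlr12 strain difference lost its call without either week 0 array, the first week 3, the first week 6, the second week 9 or the first week 12 array.

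Testing the 5 week means against each other called 145 genes (0.97%), of which 73 (50.3%) were also called for the step. The week whose mean was farthest from the other 4 was week 0 for 60 of the 145, week 3 for 40, week 9 for 29, week 6 for 10 and week 12 for 6. At week 0, 51 of the 60 were lower than at the other weeks. The smallest p belonged to Krt1, followed among the first 8 by the skin genes Krt10 and Hrnr and the clock genes Dbp, Hlf, Bhlhe41, Per3 and Per1. Krt10, a keratin partner of Krt1, was 11.54 and 12.10 at week 6 and 7.98 to 8.68 in the other 8 arrays (limma adjusted p = 3.6e-05). Hrnr, hornerin of the cornified layer, was 12.45 and 12.90 at week 6 and 7.22 to 8.19 elsewhere. The count was 57 without the second week 0 array, 317 without the first week 3 array, 68 and 83 without the first and second week 6 array, 77 and 55 without those of week 9, and 61 and 58 without those of week 12.

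Immediate early genes, which cells transcribe within minutes of a stimulus, varied by week. Of 30 measured, 13 passed the test of the 5 weeks, against 0.97% of all genes tested. In the step 2, Klf2 and Ccn2, rose, by 0.56 and 0.57, against 2.4% of all genes tested. Klf2 lost its call without either week 0 array, either week 6 array or the second week 12 array. Fos was 8.08 and 7.31 at week 0, 9.95 and 10.67 at week 3, 9.10 and 9.97 at week 6, 10.45 and 10.20 at week 9, and 9.32 and 9.79 at week 12 (limma adjusted p = 0.0259 over the 5 weeks). The week 0 arrays were the lowest of the 10. Dusp1, a phosphatase of the same response, was 11.97 and 12.04 at week 0 and 12.49 to 13.44 in the other 8 arrays (limma adjusted p = 0.0419).

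Skin, hair and skeletal muscle genes held no call of the step. In limma's step test 0 of 31 skin, 0 of 10 hair and 0 of 19 skeletal muscle genes passed, with 1, 3 and 0 at an unadjusted p under 0.05. Over all genes tested 3.36% passed, a share that gives few calls or none in lists of these sizes. The arrays with high Lor lie on both sides of the step, which adds to the error for the skin genes. Of 28 cardiac genes 1 passed, the ventricular light chain Myl2, at 7.59 to 7.83 early and 7.93 to 8.33 later, a rise of 0.42 (limma adjusted p = 0.0305) that was lost without any 1 of the arrays of weeks 0, 6 and 12. Among the 502 genes called for the step, 17 belonged to the circadian, skin, hair or muscle lists, 16 of them circadian. Endothelial and ciliated cell genes had 0 calls of 28 and of 31, with 6 and 7 at an unadjusted p under 0.05, and their median steps were 0.09 and -0.07.

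**Figure D4:**
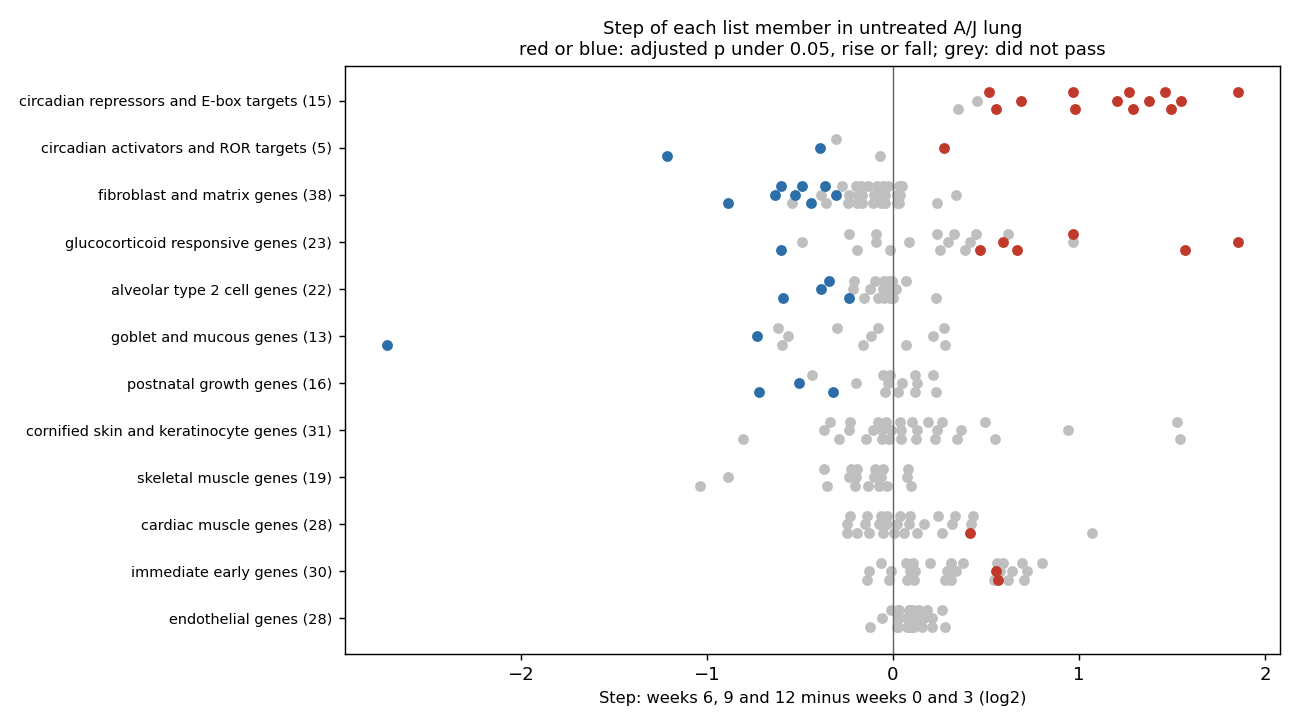
Step of each measured member (x axis, mean of weeks 6, 9 and 12 minus mean of weeks 0 and 3, log2) in 12 gene lists (y axis, number of members measured in brackets) in untreated A/J lung. Coloured points passed a limma adjusted p of 0.05: 13 of 15 circadian repressors and targets to the right of 0, 8 of 38 matrix genes to its left, and 0 of 31 skin genes. Over all genes tested 3.36% passed.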

How the data were processed

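RNA from whole lung was hybridised to Affymetrix mouse gene arrays, 1 colour and 1 sample per array. Per the submitters' processing notes, PLIER in Affymetrix Expression Console made the deposited values, which are linear intensities per probe set. Versions, background settings and the genome build are not given in the sources used here. The deposited intensities were taken as log2(intensity + 16) and quantile-normalized over all 36 arrays. A fold change on this scale understates the change of dim genes. The platform annotation paired 21789 of the 35556 probe sets with a single gene, 1621 with several and 12146 with none, and only the first were named; 21698 matched RefSeq by gene identifier. The probe set with the highest mean stood for each of 19938 genes, and genes below the 25th percentile of mean level were dropped, which left 14953.

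limma 3.58.1 (lmFit and eBayes, R 4.3.3) tested these with Benjamini-Hochberg adjustment over all genes tested at 0.05. The line had week as a number, the step set weeks 6, 9 and 12 against weeks 0 and 3 (8 residual degrees of freedom each), and an F test compared the 5 weeks (5 degrees of freedom). Strain differences were interactions over 20 untreated arrays (16 degrees of freedom). The scripts were checked on simulated data. The groups, the 42 gene lists and the tests were chosen with earlier results of these data known. Named genes are the up to 12 largest rises and falls past the threshold in the line and the step, the 8 smallest p of the F test, up to 6 per strain difference, up to 4 members per list by smallest p, and any circadian, skin or muscle gene; cell type markers were added, as were Fkbp5, Muc5b, Muc5ac, Igf2, Lamp3, Fos, Dusp1, Saa3, Prg4, Krt4, Krt13, Sprr3, Col1a1, Col5a2 and Fbln5 after their values were seen. Array numbers did not pair the arrays: over 10 pairs of weeks, the deviations of same-numbered arrays correlated between -0.228 and 0.272. Alternatives were the scaling, pseudocount, dim-gene filter, variance model, blocks, arrays left out and probe sets kept separate. Promoter windows were read from RefSeq tables.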

Additional observations from a re-analysis of the deposited data

Results flagged for a closer look

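Within the 4 arrays of weeks 0 and 3, the second week 0 array was flagged as lying apart for 2 gene lists. Its mean over the list of cornified skin genes was 9.431 against 8.238 in the nearest array, and its mean over the skeletal muscle genes was 9.847 against 8.69. Dixon's test was applied to 102 groups of arrays and flagged these 2. Chance alone flags about 1 group in 20, a share that 2 of 102 does not exceed. The flags do not cover every list. In the same 4 arrays, the mucosa list mean was 9.791 in the second week 0 array against 8.322 in the nearest. The acute phase list mean was 10.753 in the second week 3 array against 9.800 in the nearest.

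The step differed between untreated A/J and untreated C3H for 25 named genes, by the limma interaction over 20 arrays. Over all genes tested 77 (0.515%) passed. Many genes were named for their A/J step and some for this same difference, so the count of 25 does not measure how common such differences are. The differences, A/J minus C3H in log2 units, were 1.678 for Per1, 1.6 for Dbp, 1.482 for Bhlhe41, 1.213 for Ciart, 1.177 for Hlf, 1.104 for Per2, 1.028 for Per3, 0.9628 for Usp2, 0.8344 for Tef, 0.6519 for Nr1d2, 0.5048 for Cry2 and 0.337 for Cry1, all of the circadian list. Outside it they were 0.8306 for Tlr12, 0.8197 for Tspan4, 0.6162 for Mthfd1l, 0.6137 for Pfkfb3 and 0.5617 for Rgs2, a regulator of G protein signalling. They were negative for Clca1 at -3.192, Slc26a4 at -0.8859, Rasl11a at -0.7491, Mmrn1 at -0.6982, Hc at -0.6911, Pon1 at -0.5152, Steap2, a metalloreductase, at -0.467 and Gclc at -0.3449. With a single A/J array removed, Dbp and Per2 each kept this call in 5 of 10 fits, Rasl11a in 6, Slc26a4 in 3, Rgs2 in 2, Mthfd1l in 8 and Pon1 in 9, and the other 18 in all 10. The line over 12 weeks differed for Tlr12, by 1.257.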

How the results depend on the processing

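All of these counts are of genes past a limma adjusted p of 0.05, in the order step, line, 5 weeks, strain difference of the step and of the line, where the reference counts were 502, 6, 145, 77 and 1. Settings named for some of the 5 moved the others by at most 1.5 times where they could be run. On the deposited scale the step count was 329, the line 1, the 5 weeks 91 and the strain difference of the line 0. Without a filter on dim genes the line had 2, the 5 weeks 74 and the strain differences 47 and 0, and with a filter at the 50th percentile the line had 67 and its strain difference 0. With each probe set on its own the step had 223 and the line 1, the others not being run. Trended and robust variances gave 126 for the line and 334 for the 5 weeks. Array weights gave 3748, 1624, 386, 1183 and 164, and a fit to all 36 arrays 3959, 3410, 4008, 381 and 197. A mean for each week gave 842 for the step, 420 for the line and 211 and 134 for the strain differences, and week as a random block, not run for the 5 weeks, gave 251, 2, 44 and 0 (within-week correlation 0.105 for the step). With the array number as a replicate block the step count was 427 and the line 2, and the numbers do not pair the arrays. Leaving out week 0 gave 63, 0, 51, 19 and 0, and leaving out week 12 gave 86, 111, 91, 41 and 74. Without week 6 and the second week 0 array, those with high Lor, the step had 20, the 5 weeks 33 and the strain differences 35 and 5. Without the week 3 array with acute phase RNA, an alternative chosen after seeing the data, the step had 1784, the line 250 and the strain differences 612 and 35. Leaving out 1 array at a time gave 112 to 1784, 0 to 250, 55 to 317, 52 to 612 and 0 to 35. Without week 0, 759 genes had an unadjusted p under 0.05 for the line, and where its strain difference had 0 calls, 665 to 2424 genes had an unadjusted p under 0.05 in the settings that left out no single array. Fits without whole weeks also rest on fewer arrays, and otherwise the cause was not tested. Of 66 named step calls, 34 held in each fit without 1 array and 12 in each fit run; 53 were lost without week 6 and the week 0 array, 13 with week as a random block, and 0 changed direction. The counts of skin, skeletal muscle and acute phase genes above the median of the arrays were the same on the deposited scale. Signal over background limits the dim genes, and the 4985 below the filter were not tested.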

Other observations

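Genes of low oxygen response, club cells and lymphatic vessels held further calls of the step in untreated A/J, few in each list. Over all genes tested 2.4% rose and 0.956% fell. Of 20 measured hypoxia genes 3 rose and 0 fell, with a list median of 0.11 against 0.04 over all genes tested. Pfkfb3, a regulator of glycolysis, was 10.20 and 9.96 at week 0, 9.70 and 9.84 at week 3, and 10.38 to 10.77 in the 6 later arrays. The groups did not overlap, and it rose by 0.64 (SE 0.10, limma adjusted p = 0.00851). P4ha2, a collagen prolyl hydroxylase, rose by 0.29 and Ndrg1 by 0.36. With a single array removed, P4ha2 kept its call in 4 of 10 fits and Ndrg1 in 1, that without the second week 3 array. Of 19 club cell genes Fmo2, a monooxygenase, and Ces1d, a carboxylesterase, rose by 0.27 and 0.24, and Pon1, a paraoxonase, fell by 0.40. Fmo2 kept its call in 5, Ces1d in 2 and Pon1 in 6 of 10 fits with a single array removed. Mmrn1, a multimerin of lymphatic endothelium, was the 1 call among 7 lymphatic genes. It was 8.63 to 8.87 early and 8.02 to 8.48 later, and fell by 0.54 (SE 0.09, limma adjusted p = 0.0121).

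Immune and proliferation lists held few calls or none. In limma's step test 0 of 21 T and NK cell genes, 0 of 17 B and plasma cell genes and 0 of 21 alveolar macrophage genes passed, with 1, 1 and 6 at an unadjusted p under 0.05. Over all genes tested 3.36% passed. Of 38 proliferation genes 1 rose and 1 fell, against 2.4% and 0.956% of all genes tested. Ndc80, of the kinetochore, rose by 0.32 and Bub1, of the spindle checkpoint, fell by 0.53, and each kept its call in 5 of 10 fits with a single array removed. The early and later arrays did not overlap for Ndc80, at 7.57 to 7.81 and 7.88 to 8.15, and overlapped for Bub1, at 7.81 to 8.40 and 7.36 to 7.82.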
